A study of Mus musculus with 8 samples.

Results

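Embryoid bodies grown from mouse embryonic stem cells were compared at day 4 and at day 2 of differentiation without doxycycline (Dox). The day means come from the 4 of the 8 arrays of the series whose titles read DoxOFF_day4 and DoxOFF_day2, with 2 arrays on each day. The line is named iTbx6 T-GFP, and all groups carry it: cells without Dox hold the inducible Tbx6 transgene too but were not given the inducer. Per the labels, the cells were kept for 2 days in serum-free differentiation medium with no added growth factor, the aggregates were then taken apart, and the cells were put together again in the same medium for another 2 days. Day and reaggregation therefore cannot be told apart here. The remaining groups, DoxOn_day4 and DoxOn_day2, are the same line and medium with Dox, 2 arrays each. These groups are used below to ask where the course without Dox differs from the course with it. They also entered the probe filter, the normalization and the fit. The standard errors and p-values of the day comparison therefore draw on all 8 arrays. The labels do not say if the 2 arrays of a group stand for separate cultures, so the p-values reflect array-to-array spread that may be technical. They also give no time at which Dox was added, and no cells without the transgene received Dox, so Dox itself and Tbx6 induction cannot be told apart.

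Embryonic stem cells hold a network of transcription factors that keeps them pluripotent and that is shut down as they leave that state. Cells that receive Nodal, Wnt and BMP signals enter a primitive streak-like state and form mesoderm or endoderm, while cells shielded from these signals tend towards neural ectoderm. On the way to mesoderm and on the way to a neural tube, E-cadherin is commonly exchanged for other cadherins. An embryoid body is a mixed aggregate, so fewer cells of a type and less RNA per cell cannot be told apart in these bulk samples.

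Every array was single-colour, and a level is given below as a log2 intensity after subtraction of the blank spots and quantile normalization. Levels are compared between days for 1 probe, not between genes. A level of 1.04 is the floor, under which values have no order. Between 86.0% and 89.2% of the 23473 gene probes per array were above the background of the blank spots (mean plus 2 SD). Between 11924 and 17747 probes per array were brighter than the brightest negative control spot, a stricter rule that was not used, so bounds set on it would be smaller. The number of arrays limits the precision. Replicate arrays correlated at 0.993 to 0.994, against 0.941 to 0.942 between the days without Dox. The day-4 arrays without Dox had scores of 94 and 95 on the first principal component (62.5% of the variance), against -37.4 and -38.6 for their day-2 arrays, and the 4 arrays with Dox lay between -49.7 and -6.3. One technical measure did not follow the groups: the slope that joins 2 scanner gains was 0.464 on DoxOFF_day4 replicate 2 and 0.477 on DoxOFF_day4 replicate 1, against 0.466 on both day-2 arrays without Dox. With Dox it was 0.466 and 0.467 at day 2 and 0.478 on both day-4 arrays. Another measure followed the day: the blank-spot mean was 52.3 to 54.1 on the day-2 arrays and 56.9 to 60.9 on the day-4 arrays. This level and day cannot be told apart, and the part of either measure in the results was not tested.

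Of 21670 probes tested, 4385 (20.2%) were higher at day 4 without Dox and 3881 (17.9%) were lower, 8266 in all (38.1%; limma, Benjamini-Hochberg adjusted p under 0.05). A change of at least 2-fold was reached by 1549 of the higher and 1743 of the lower probes, and of at least 16-fold by 51 and 131. The median change over all probes was 0.04 on the log2 scale, and its quartiles were -0.29 and 0.38. The 2 days did not overlap for 14364 probes (66.3%). By detection, 174 probes (0.803%) were above background on both day-4 arrays and on neither day-2 array, and 374 (1.73%) on both day-2 arrays and on neither day-4 array. Among the called probes, 1090 higher and 834 lower ones have no gene name here. These counts depend on the background: with normexp correction on the scanner's local background column limma called 0 probes (605 at an unadjusted p under 0.05), and that column tracked the brightness of its own spot (log values correlated at 0.984 to 0.998).

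**Figure D1:**
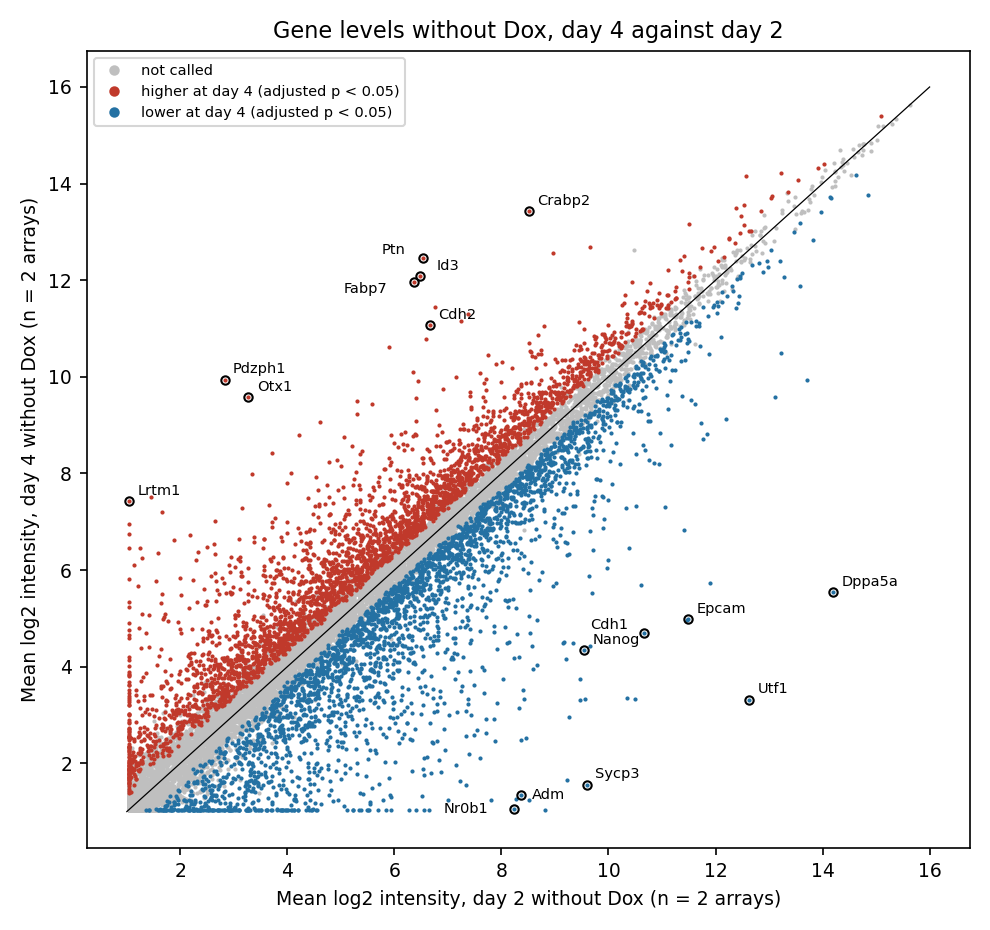
Mean log2 intensity of each named gene at day 4 (vertical axis) against day 2 (horizontal axis) without Dox, 2 arrays per day; red and blue points were called by limma, grey points were not, the line marks equal levels and the circled genes are named. Pdzph1, Otx1 and Lrtm1 lie farthest above the line, and Utf1, Dppa5a and Sycp3 farthest below it.

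Most of the measured pluripotency genes fell, and several were among the 12 largest falls. Of 15 measured naive pluripotency genes, 10 fell and 0 rose (median log2 change -1.01, against 0.04 over all probes). Of 11 measured core and general pluripotency genes, 8 fell and 1 rose (median -2.43), and without either DoxOn_day4 array 2 rose. Pou5f1 and Sox2 are not analysed here, since no probe is named for them.

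Utf1, a chromatin-associated factor of undifferentiated cells, stood at 3.29 and 3.34 at day 4 and at 12.64 and 12.62 at day 2. Its day-4 minus day-2 difference on the log2 scale was -9.31 ± 0.10 (standard error, 2 arrays on each day; limma adjusted p = 1.43e-07), the largest fall of any gene that meets the rule. Dppa5a, an RNA-binding protein of stem cells, had 5.59 and 5.48 at day 4 against 14.28 and 14.13 at day 2, a fold of 406 lower. In both genes the day-4 arrays lay far under the day-2 arrays and the replicates nearly coincided.

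Dppa4, a chromatin protein of pluripotent and germ cells, had 3.59 and 3.14 at day 4 and 10.30 and 10.37 at day 2 (log2 change -6.98). Its partner Dppa2 changed by -4.89. Zfp42, the stem cell marker known as Rex1, had 3.43 and 3.21 at day 4 and 9.41 and 9.51 at day 2 (log2 change -6.14 ± 0.11, limma adjusted p = 3.84e-07). None of these day-4 levels was at the floor. Nr0b1, which encodes the orphan nuclear receptor Dax1, had 1.04 and 1.08 at day 4, not above background, against 8.24 and 8.23 at day 2, at least 125-fold lower. Fbxo15, an F-box protein known as a target of the stem cell network, changed by -4.61, and the Krüppel-like factor Klf5 by -2.65. Esrrb, an orphan receptor of naive cells, did not pass, with 3.43 and 3.05 at day 4 against 3.55 and 3.70 at day 2. Among the core genes the single riser was Lin28a, an RNA-binding protein of stem and progenitor cells (log2 change 0.54 ± 0.11), and Sall4, a zinc finger factor, did not pass (-0.21).

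Nanog, the homeodomain factor of the pluripotency network, had 4.55 and 4.12 at day 4 and 9.44 and 9.63 at day 2. Its log2 change was -5.20 ± 0.18 (limma adjusted p = 2.7e-06), and the days were well separated. The Nanog promoter is shown because it holds, in capitals, the composite site that Oct4 and Sox2 are known to bind together (TTTGCAT followed 1 base later by ACAATG, searched on both strands). Over 32851 RefSeq windows of 250 bases before to 50 bases after a gene start, this motif occurs in 2 windows (0.00609%), both of them windows of Nanog. Only these exact letters with 1 free base were searched, so the count leaves out composite sites with other letters. The octamer core alone, TTTGCAT, lies in 4.63% of all windows, in 2 of the 6 falling naive genes with a window (Nanog and Zfp42) and in 0 of 5 falling core genes. Among the measured genes with a window it lies in 2 of 10 naive and 0 of 7 core genes. A gene counts if any of its windows matches. Counted by window, the octamer core lies in 3 of 8 for the naive and 0 of 6 for the core genes. The window lies at chr6:122707239-122707538 on the plus strand (GRCm38.p6), and the match begins at position -75 from the start.
Nanog: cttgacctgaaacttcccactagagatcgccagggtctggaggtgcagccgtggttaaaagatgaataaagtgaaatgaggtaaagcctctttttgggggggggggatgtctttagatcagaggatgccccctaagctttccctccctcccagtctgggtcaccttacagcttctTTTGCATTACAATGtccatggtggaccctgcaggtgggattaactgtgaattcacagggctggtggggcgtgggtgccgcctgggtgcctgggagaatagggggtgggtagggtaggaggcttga

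Genes of the epiblast that follows the naive state mostly fell as well. Of 11 measured primed epiblast genes 7 fell and 3 rose (median -1.02). Fgf5, the growth factor that marks this stage, had 3.24 and 3.16 at day 4 and 6.48 and 6.59 at day 2 (log2 change -3.34 ± 0.11, limma adjusted p = 2.44e-06). Otx2, a homeodomain factor of both epiblast and anterior neural plate, went the other way, with 10.60 and 10.73 at day 4 against 9.72 and 9.77 at day 2 (log2 change 0.92 ± 0.10). Sfrp2, a secreted Wnt antagonist, rose by 1.72.

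Several genes of the DNA methylation machinery fell. Of 16 measured DNA methylation and Polycomb genes, 9 fell and 3 rose (median -0.90). The de novo methyltransferase Dnmt3b had 9.55 and 9.63 at day 4 against 13.14 and 13.08 at day 2, and Dnmt3a had 6.31 and 6.59 against 10.31 and 10.47. Their catalytically inactive partner Dnmt3l changed by -5.09, and Tet1, which oxidizes methylcytosine, by -2.31. Cbx7, a Polycomb reader prominent in stem cells, had 4.39 and 4.60 at day 4 and 9.39 and 9.30 at day 2 (log2 change -4.85 ± 0.11, limma adjusted p = 6.34e-07). The Polycomb subunit Bmi1 rose by 2.13, at 5.47 on both day-4 arrays against 3.26 and 3.42 at day 2.

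Germ cell and meiosis genes, which stem cells express at some level, fell in 12 of 15 measured members and rose in 0 (median -1.77, or -1.60 with genes under background at their bound). Sycp3, a component of the synaptonemal complex, had 1.04 and 2.07 at day 4 and 9.60 on both day-2 arrays, a log2 change of -8.04 ± 0.30 (limma adjusted p = 3.88e-06). Mael, which acts in transposon silencing in germ cells, changed by -5.21, Stra8, the retinoic acid-inducible entry factor of meiosis, by -4.11, and the RNA-binding protein Dazl by -3.18. One of the 2 Sycp3 day-4 arrays was at the floor, so its fold depends on the floor.

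The Sycp3 promoter is shown for the E-box CACGTG, a palindrome that many helix-loop-helix factors bind. It lies in 7.15% of all windows and in 4 of the 10 falling germ cell genes with a window (Mael, Sycp1, Sycp3 and Taf7l), and in 5 of the 13 measured ones. The window, at chr10:88459337-88459636 on the plus strand (GRCm38.p6), has 2 matches in capitals, of which the one farther from the start begins at -64.
Sycp3: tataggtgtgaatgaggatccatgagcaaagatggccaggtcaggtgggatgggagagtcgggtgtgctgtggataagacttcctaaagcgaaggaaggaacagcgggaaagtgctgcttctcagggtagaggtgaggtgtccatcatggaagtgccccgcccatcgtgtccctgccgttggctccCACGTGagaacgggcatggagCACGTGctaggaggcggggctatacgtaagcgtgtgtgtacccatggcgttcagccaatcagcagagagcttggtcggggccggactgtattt

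Cell adhesion genes changed in opposite directions. Cdh1, which encodes E-cadherin, had 4.79 and 4.60 at day 4 and 10.80 and 10.54 at day 2, and its log2 change was -5.98 ± 0.13 (limma adjusted p = 5.66e-07). Epcam, the epithelial adhesion molecule, had 4.90 and 5.06 at day 4 and 11.55 and 11.44 at day 2 (log2 change -6.51 ± 0.10). Cdh2, which encodes N-cadherin, had 11.07 on both day-4 arrays and 6.75 and 6.56 at day 2, a log2 change of 4.41 ± 0.10 (limma adjusted p = 7.06e-07). For each of these 3 genes the replicates of a day lay close together and the days did not overlap.

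Of 15 measured genes for cadherins and cell adhesion, 10 rose and 2 fell (median 1.0), and Cdh1 and Epcam were the 2 that fell. Without DoxOFF_day4 replicate 2 the count of rises was 6. Cdh11, a mesenchymal and neural cadherin, had 6.57 and 6.14 at day 4 against 1.16 and 1.99 at day 2. The tight junction list ran the other way: 8 of 13 measured genes fell and 2 rose (median -1.87). Cldn6, a claudin of early epithelia, had 3.0 and 2.84 at day 4 and 7.91 and 7.80 at day 2. Crb3, a Crumbs protein of the apical membrane, changed by -4.77, the junction adhesion molecule F11r by -3.62 and Cldn5 by -4.66. Cldn10 was the largest riser of the list, with 5.92 and 5.70 at day 4 and the floor on both day-2 arrays, at least 25.8-fold higher.

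**Figure D2:**
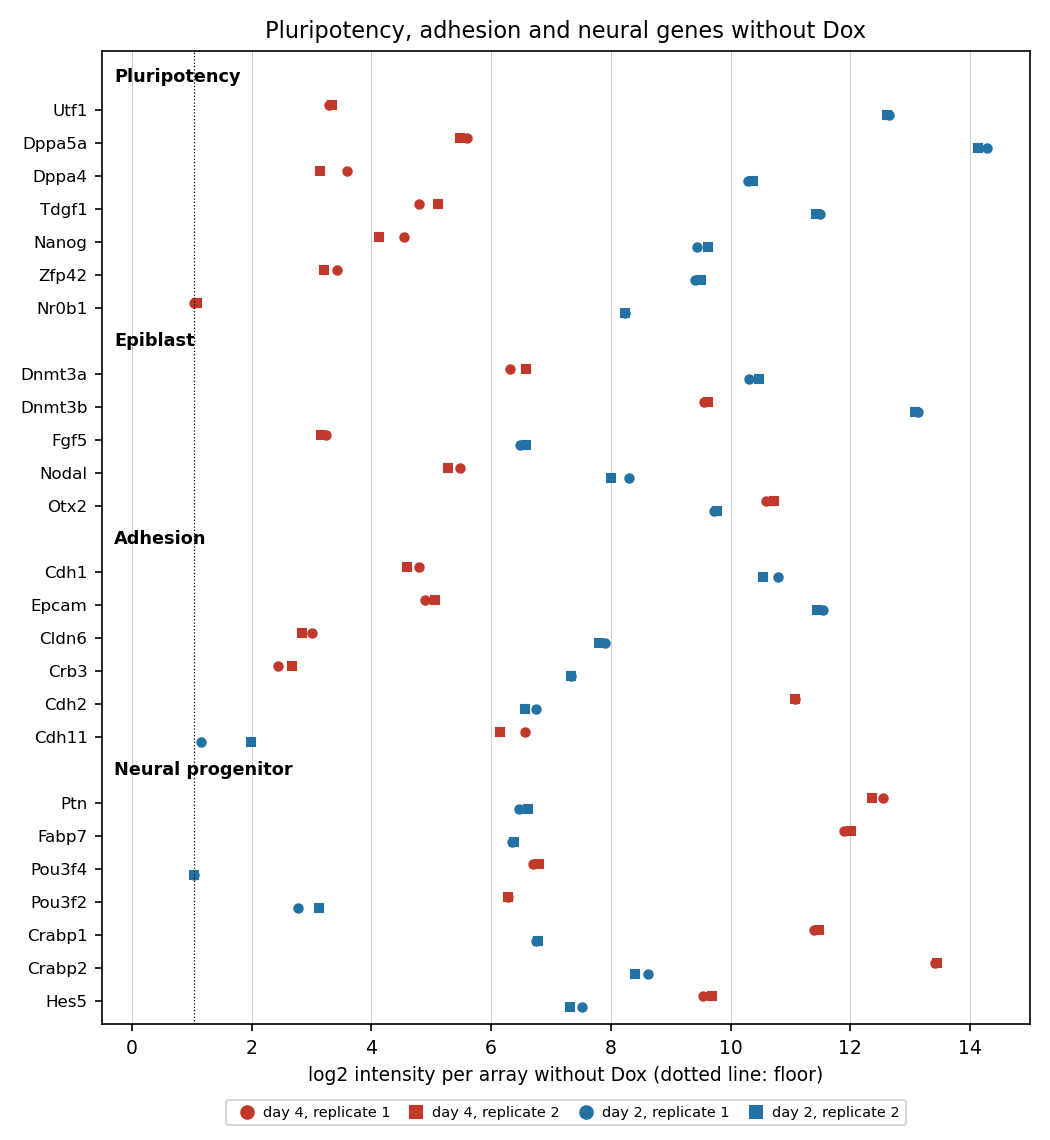
Log2 intensity on each array without Dox (horizontal axis) for pluripotency, epiblast, adhesion and neural progenitor genes; red marks day 4, blue marks day 2, circles are replicate 1, squares are replicate 2 and the dotted line is the floor. Utf1 sits at 3.29 and 3.34 at day 4 and at 12.64 and 12.62 at day 2, while Ptn sits at 12.54 and 12.36 at day 4 and at 6.47 and 6.61 at day 2.

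Many genes of neural progenitors rose. Of 19 measured transcription factors of neural progenitors 10 rose and 4 fell (median 0.65), and of 17 measured cytoskeletal and surface genes 10 rose and 1 fell (median 0.79). Sox1 has no named probe here and was not analysed. Pou3f4, a POU factor of the developing brain, was at the floor on both day-2 arrays and stood at 6.70 and 6.80 at day 4, at least 49.6-fold higher (limma adjusted p = 4.58e-07). Its relative Pou3f2, also called Brn2, had 6.28 and 6.29 at day 4 against 2.77 and 3.12 at day 2. Sox21, a SoxB factor of neural progenitors, rose by 1.94 ± 0.18.

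Pax6 and Zic5, both often used as neural markers, fell. Pax6, the paired-box factor of neuroectoderm, had 4.41 and 4.16 at day 4 and 5.47 and 5.62 at day 2 (log2 change -1.26 ± 0.16, limma adjusted p = 0.000853). Zic5, a zinc finger factor of the neural plate, changed by -1.95 ± 0.09. The days did not overlap in either gene. Six3 (1.94 and 2.25 at day 4, 2.25 and 2.06 at day 2) and Rax (floor on both day-4 arrays, 1.04 and 1.49 at day 2), factors of the anterior neural plate and eye field, did not pass.

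Among the cytoskeletal and surface genes, Ptn encodes pleiotrophin, a growth factor of radial glia and other progenitors. It had 12.54 and 12.36 at day 4 and 6.47 and 6.61 at day 2, a log2 change of 5.91 ± 0.11 (limma adjusted p = 4.58e-07). Fabp7, the brain fatty acid-binding protein of radial glia, had 11.89 and 12.02 at day 4 against 6.35 and 6.38 at day 2, 48.2-fold higher. Fabp5, a relative of it, rose by 2.71, Prom1, a membrane protein of apical progenitor surfaces, by 2.09, and the intermediate filament Nes by 1.15. The member of this list that fell was Slc1a3 (log2 change -1.27 ± 0.16, limma adjusted p = 0.000871), and 6 members did not pass.

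Of 24 measured neuron genes 9 rose, 3 fell and 12 did not pass (median 0.25), and of 13 measured proneural factors 2 rose and 2 fell (median 0.12), or 1 fell without DoxOFF_day2 replicate 1. Neither proneural share was above that of all probes tested (20.2% higher and 17.9% lower). Tubb3, the neuronal beta-tubulin, did not pass: it had 6.90 and 7.12 at day 4 and 6.88 and 6.55 at day 2 (log2 change 0.30 ± 0.14, limma adjusted p = 0.154). Nsg1, a neuronal endosomal protein, had 5.84 and 5.82 at day 4 and 2.45 and 3.10 at day 2, and the tubulin-binding Stmn3 rose by 2.41. The neurofilament gene Nefm rose by 1.98 and Dcx, a microtubule protein of migrating neurons, by 1.06. The 3 that fell were Elavl3, a neuronal RNA-binding protein (-1.02), the intermediate filament gene Ina (-0.87) and Chga, which encodes chromogranin A (-0.48). The call of Chga (limma adjusted p = 0.0334) ended without either DoxOn_day2 array, either DoxOFF_day2 array or DoxOFF_day4 replicate 1 (adjusted p = 0.0557 to 0.151), and with the 4 arrays alone (0.0909). Neurod1, a proneural factor, fell by 3.06, with 5.51 and 4.90 at day 4 against 8.15 and 8.39 at day 2. Its relative Neurod4 rose by 1.55 and the dorsal factor Olig3 by 1.45. The medians of the progenitor lists were 0.65 and 0.79, against 0.25 for the neuron list, and no test set the lists against each other.

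The position that these genes mark along the neural tube was read from 4 lists. Of 13 measured midbrain and hindbrain genes 5 rose and 0 fell (median 0.35), and the risers were Wnt1, Irx3, Irx2, En1 and En2. Otx1, a homeodomain factor of fore- and midbrain, is in none of the 4 lists and is named as 1 of the 12 largest rises. It had 9.49 and 9.66 at day 4 and 3.32 and 3.21 at day 2, a log2 change of 6.31 ± 0.11 (limma adjusted p = 3.84e-07). Wnt1, the ligand of the midbrain-hindbrain boundary and the dorsal midline, had 6.34 and 6.56 at day 4 and the floor on both day-2 arrays, at least 40.2-fold higher (limma adjusted p = 0.00388). The engrailed genes of the same boundary rose together, En1 by 2.34 ± 0.13 and En2 by 2.21 ± 0.16. Irx3, an Iroquois factor that lies behind the forebrain, had 7.31 and 7.38 at day 4 and 3.56 and 3.75 at day 2, and Irx2 rose by 2.72.

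In the dorsoventral list of the neural tube 6 of 13 measured genes rose, 2 fell and 5 did not pass (median 0.32). The 5 largest rises were Msx3, Pax7, Irx3, Pax3 and Msx1. Msx3, confined in the mouse to the dorsal neural tube, had 7.49 and 7.54 at day 4 and 1.87 and 1.04 at day 2 (log2 change 6.06 ± 0.25, limma adjusted p = 6.53e-06). Pax7 had 6.25 and 5.95 at day 4 against 1.04 and 1.23 at day 2, and Pax3 had 6.45 and 6.74 against 3.49 and 3.28. Gsx1 (-0.27) and Gsx2 (-0.35), homeodomain factors of dorsal interneuron progenitors, did not pass. The floor plate factor Foxa2 fell by 1.86 and the ventral interneuron factor Dbx2 by 1.34. Shh, the floor plate ligand, had 1.63 and 1.29 at day 4 and 1.12 and 1.83 at day 2 and did not pass, nor did the motor neuron progenitor factor Olig2 (0.10).

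Of 15 measured anterior neural plate and forebrain genes 3 rose and 2 fell (median 0.06), shares near those of all probes tested (20.2% higher and 17.9% lower). The count of falls was 1 without any one of DoxOn_day4 replicates 1 and 2 and DoxOFF_day4 replicates 1 and 2. The risers were Sfrp1 (2.64), a Wnt antagonist, the cortical factor Emx2 (3.52 and 3.51 at day 4, against 1.04 and 1.29 at day 2) and Otx2. Of 19 measured Hox and Cdx genes, which mark the hindbrain and trunk, 0 rose and 3 fell (median -0.14), or 1 fell without DoxOFF_day2 replicate 1, DoxOFF_day4 replicate 1 or DoxOFF_day4 replicate 2. Their share of falls was not above the 17.9% of all probes tested. Hoxa5 was the largest fall, with 2.28 and 2.61 at day 4 and 5.06 and 4.94 at day 2. Hoxb1 (-0.25), Hoxb4 (0.27), Hoxb9 (-0.14) and Cdx2 (0.10) did not pass.

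**Figure D3:**
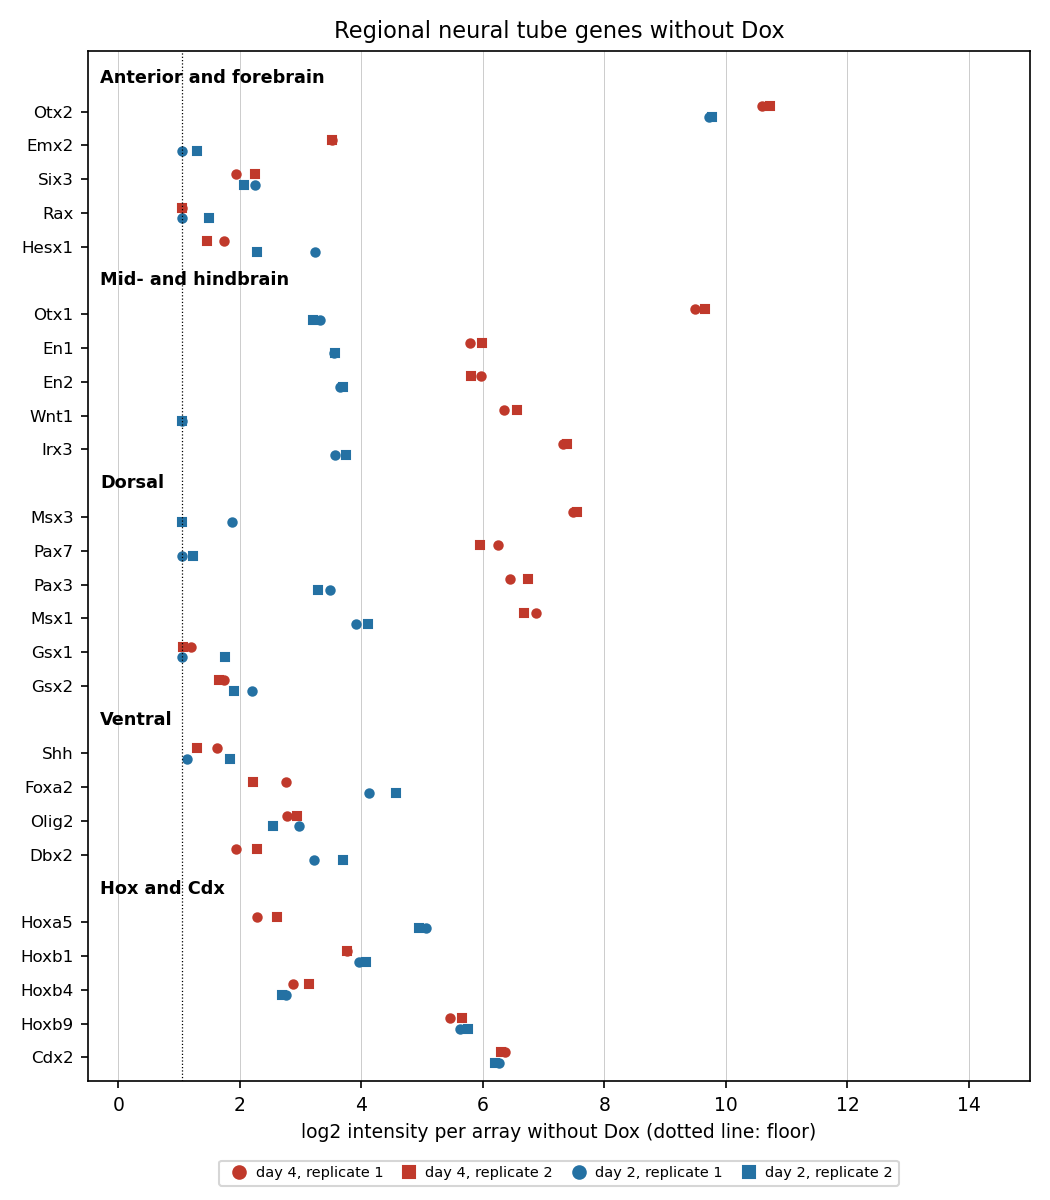
Log2 intensity on each array without Dox (horizontal axis) for genes that mark regions of the neural tube; red marks day 4, blue marks day 2, circles are replicate 1, squares are replicate 2 and the dotted line is the floor. The day-4 points of Otx1 (9.49 and 9.66), Msx3 (7.49 and 7.54) and Irx3 (7.31 and 7.38) lie to the right of their day-2 points, Gsx1 and Gsx2 lie near the floor on both days, and Shh and the Hox genes other than Hoxa5 lie close to them.

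Neural crest and placode genes rose in 6 of 12 measured members and fell in 0 (median 0.47), but without DoxOFF_day4 replicate 2 only 3 rose. Tfap2b, an AP-2 factor of the crest, had 4.17 and 3.89 at day 4 and 1.79 and 1.34 at day 2 (log2 change 2.46 ± 0.24, limma adjusted p = 0.000273). Erbb3, a neuregulin receptor of crest cells, rose by 0.66. Pax3, which this list shares with the dorsal tube, was its largest riser.

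Of 17 measured primitive streak and nascent mesoderm genes 1 rose and 7 fell (median -0.21). Without DoxOFF_day2 replicate 1 the count of falls was 3, without DoxOFF_day4 replicate 2 it was 4 with 0 rises, and without DoxOFF_day2 replicate 2 there were 0 rises. T, which encodes Brachyury, had 3.54 and 3.68 at day 4 and 3.40 and 3.27 at day 2 (log2 change 0.28 ± 0.11, limma adjusted p = 0.0921). The Tbx6 probe read 5.50 and 5.58 at day 4 and 5.59 and 5.49 at day 2 and changed by 0.00 ± 0.12 (limma adjusted p = 0.999). With Dox the Tbx6 probe read 6.10 and 6.23 at day 4 and 5.21 and 5.48 at day 2. No source used here says which stretch of the transcript that probe reads, so it cannot be assigned to the endogenous gene or the transgene.

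Mesp1, the earliest factor of cardiac mesoderm, was close to background: 1.17 and 1.11 at day 4, not above it, and 1.88 and 1.64 at day 2. Its fall of at least 1.4-fold (limma adjusted p = 0.0125) ended without DoxOFF_day2 replicate 1 (adjusted p = 0.0698) or DoxOFF_day4 replicate 2 (adjusted p = 0.0667), with a doubled floor (adjusted p = 1) and with no background correction (adjusted p = 0.646). Lhx1, a LIM factor of streak and axial mesoderm, had 2.93 and 3.01 at day 4 and 4.73 and 4.79 at day 2. Follistatin (Fst), an activin antagonist, changed by -0.88. Mixl1 (0.27) and Gsc (-0.19), factors of the streak and its organizer, did not pass.

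Of 16 measured presomitic and paraxial mesoderm genes 4 rose and 2 fell (median 0.15), or 1 fell without DoxOFF_day2 replicate 1 or either DoxOFF_day4 array. The share that rose was not below the 20.2% of all probes tested. The risers included Lfng and Pax3, which are also expressed in the neural tube. Cited1, a transcriptional cofactor, rose by 1.15 and the Notch ligand Dll1 by 0.65. Of 14 measured cardiac and lateral plate genes 1 rose and 3 fell (median -0.02). The counts were 2 and 3 without either DoxOn_day2 array and 2 and 4 without DoxOFF_day4 replicate 1. In this list the share that fell was near the 17.9% of all probes tested. Smarcd3, a chromatin remodelling subunit of heart and neural tissue, rose by 1.74, while Wt1, a zinc finger factor of the epicardium and kidney, fell by 1.72 and Bmp4 by 1.67.

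For markers of other tissues that an embryoid body can hold, more members fell than rose in each list, and many did not pass. Of all probes tested, 17.9% fell and 20.2% rose. Of 19 measured primitive and visceral endoderm genes 10 fell and 1 rose (median -1.14), or 11 and 2 without either DoxOn_day2 array. Ttr, the thyroxine carrier transthyretin, had 1.63 and 1.84 at day 4 and 5.44 and 5.48 at day 2, and the apolipoprotein gene Apoe changed by -3.03. Trf, transferrin, had 1.05 and 1.68 at day 4 against 5.28 and 5.55 at day 2. Of 9 measured definitive endoderm genes 5 fell and 1 rose (median -1.22), or 6 and 2 without either DoxOn_day2 array. The riser was the chemokine receptor Cxcr4 (2.11), which neural progenitors also express.

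Endothelium and blood genes fell in 7 of 15 measured members and rose in 0 (median -0.40). Pecam1, the endothelial adhesion molecule that stem cells express too, was at the floor on both day-4 arrays and at 5.58 and 5.43 at day 2, at least 18.8-fold lower. Etv2, an ETS factor of the blood and vessel lineage, had 4.82 and 4.30 at day 4 and 6.19 and 6.48 at day 2. Of 17 measured cardiomyocyte and muscle contractile genes 5 fell and 1 rose (median -0.38), and without each of the 8 arrays in turn 3 to 5 fell and 0 to 2 rose. Myl7, the atrial myosin light chain, had 3.97 and 3.86 at day 4 against 7.45 and 7.39 at day 2. Of 15 smooth muscle and fibroblast genes 5 fell and 3 rose (median -0.11), or 4 and 5 without DoxOFF_day4 replicate 2. In this list the share that rose was near the 20.2% of all probes tested. Thy1, a surface glycoprotein, changed by -3.62 and smooth muscle actin Acta2 rose by 1.45.

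Of 10 measured surface ectoderm genes 5 fell and 0 rose (median -0.48), or 4 fell and 1 rose without DoxOFF_day2 replicate 1, and the largest falls there were again Epcam and Cdh1. Tfap2c, an AP-2 factor of surface ectoderm and trophoblast, changed by -0.92. Of 9 measured trophoblast genes 3 fell and 0 rose (median -0.04), or 1 fell without DoxOFF_day2 replicate 1 or DoxOFF_day4 replicate 1. The trophoblast median was near the 0.04 of all probes tested. These lists share members with the epithelial and pluripotency genes above, so their counts are not separate observations.

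Nodal signalling acts through Nodal and Gdf3 with the co-receptor Tdgf1 (Cripto) and is limited by Lefty1. Of 14 measured genes 7 fell and 2 rose (median -0.62), or 1 rose without DoxOFF_day4 replicate 1. The ligand Gdf3 had 1.04 and 1.44 at day 4 and 8.51 on both day-2 arrays (log2 change -7.27 ± 0.14, limma adjusted p = 4.58e-07). Nodal had 5.48 and 5.28 at day 4 and 8.30 and 8.0 at day 2. Tdgf1 had 4.80 and 5.12 at day 4 against 11.50 and 11.43 at day 2, and Lefty1 changed by -5.23. Foxh1, the transcriptional partner of the pathway's Smads, changed by -2.69. The ligands, co-receptor, inhibitor and effector named here fell, while the receptor genes Acvr2a and Acvr2b were the 2 that rose, and the call of Acvr2a was the one that ended (limma adjusted p = 0.07).

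Wnt genes rose in 14 of 24 measured members and fell in 2 (median 0.97). Among the ligands, Wnt1 is given above, Wnt4 rose by 2.80, and Wnt8a fell, with the floor on both day-4 arrays and 4.28 and 3.96 at day 2, at least 7.21-fold lower. The receptor Fzd3, known for its part in axon growth, had 6.95 and 7.05 at day 4 against 3.64 and 3.81 at day 2. The secreted antagonist Frzb had 6.51 and 6.38 at day 4 and 1.10 and 1.40 at day 2, and Nkd1, an inducible inhibitor of the pathway, had 9.09 and 9.06 against 6.37 and 6.44. Ligands, receptors and inhibitors are all among the rises.

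BMP genes rose in 7 of 15 measured members and fell in 4 (median 0.19), or in 6 and 2 without DoxOFF_day4 replicate 1. Of all probes tested, 20.2% rose and 17.9% fell. The 4 Id genes measured, direct targets of BMP signals that hold back differentiation factors, rose. Id3 had 12.10 and 12.06 at day 4 and 6.44 and 6.52 at day 2 (log2 change 5.60 ± 0.10, limma adjusted p = 3.69e-07), Id1 rose by 2.29, Id2 by 2.19 and Id4 by 1.17. The ligand Bmp4 and the inhibitory Smad7 (-2.37) fell, so Bmp4 and the Id genes went opposite ways.

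Notch genes rose in 9 of 15 measured members and fell in 3 (median 0.57), or in 7 and 1 without DoxOFF_day2 replicate 2 or DoxOFF_day4 replicate 1. The ligand Jag1 had 5.77 and 5.73 at day 4 and 3.15 and 3.38 at day 2, and Lfng, a glycosyltransferase that tunes the receptor, had 4.79 and 4.82 against 1.16 and 1.29. Hes5, the effector that keeps neural progenitors from becoming neurons, had 9.54 and 9.69 at day 4 and 7.51 and 7.32 at day 2 (log2 change 2.20 ± 0.15, limma adjusted p = 5.47e-05). Hey1, a related repressor, rose by 1.92. Other genes went down: Hes1, a relative of Hes5, changed by -0.67 ± 0.16 (limma adjusted p = 0.0167). The ligand Dll3 changed by -0.52 ± 0.11 (limma adjusted p = 0.00812).

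The Hes5 promoter is shown for GTGGGAA, the core of the site of RBPJ, the DNA-binding partner of cleaved Notch. The motif lies in 6.38% of all windows and in 3 of the 7 rising Notch genes with a window (Hes5, Hey2 and Lfng). Among the measured Notch genes with a window it lies in 3 of 12. Counted by window it lies in 3 of 8. The Hey2 rise ended without DoxOFF_day2 replicate 2 (limma adjusted p = 0.0786), DoxOFF_day4 replicate 1 (0.068) or DoxOFF_day4 replicate 2 (0.077). The window lies at chr4:154960673-154960972 on the plus strand (GRCm38.p6) and holds 2 matches in capitals, the first of them on the opposite strand and therefore read as TTCCCAC. That first match begins at -226.
Hes5: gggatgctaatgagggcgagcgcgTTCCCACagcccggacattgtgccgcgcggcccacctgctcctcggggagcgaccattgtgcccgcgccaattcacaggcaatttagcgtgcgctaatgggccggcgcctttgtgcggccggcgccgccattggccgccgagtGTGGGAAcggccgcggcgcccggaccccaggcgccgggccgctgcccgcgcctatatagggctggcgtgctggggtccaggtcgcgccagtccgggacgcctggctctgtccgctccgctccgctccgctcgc

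FGF genes fell in 9 of 19 measured members and rose in 5 (median -0.36). Fgf4, the ligand by which stem cells leave the naive state, had 1.43 and 1.04 at day 4 and 6.97 and 7.05 at day 2, and Etv4, a transcriptional target of FGF signals, fell by 1.58. The receptor Fgfr2 had 5.98 and 5.76 at day 4 against 3.86 and 3.72 at day 2. Hedgehog genes rose in 5 of 13 measured members and fell in 3 (median 0.07). That median was near the 0.04 of all probes tested, of which 20.2% rose and 17.9% fell. The co-receptor Boc had 6.30 and 6.45 at day 4 and 2.88 and 1.78 at day 2, the transducer Smo rose by 1.45, and the targets Gli1 and Hhip fell by 1.47 and 1.10. In both pathways the receptor genes named here rose, while Fgf4 and the named target genes fell.

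Of 14 measured retinoic acid genes 3 rose and 5 fell (median -0.22), and the 2 cellular binding proteins stood apart. The share of rises was near the 20.2% of all probes tested. Crabp2, which carries retinoic acid to its receptor, had 13.42 and 13.45 at day 4 and 8.62 and 8.41 at day 2 (log2 change 4.92 ± 0.21, limma adjusted p = 6.78e-06). Crabp1, which binds it in the cytoplasm, had 11.40 and 11.48 at day 4 and 6.75 and 6.78 at day 2 (log2 change 4.68 ± 0.13). The receptor genes Rarg (-1.88) and Rxrg (-1.93) fell, as did the retinoic acid target Stra8.

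Axon guidance and Eph genes rose in 14 of 25 measured members and fell in 2 (median 0.95). The ephrin Efna5 had 7.03 and 7.02 at day 4 and 2.81 and 2.46 at day 2, and Efna2 had 7.88 and 7.74 against 4.04 and 3.96. Efnb1 rose by 2.98 and the receptor Epha7 by 2.05. Epha2, an Eph receptor of stem cells and epithelia, fell by 2.39.

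Metabolic genes also separated the days. Of 26 measured hypoxia and glycolysis genes 20 fell and 0 rose (median -1.01). Adm, the hypoxia-inducible peptide adrenomedullin, had 1.66 and 1.04 at day 4 and 8.24 and 8.51 at day 2, a log2 change of -7.02 ± 0.29 (limma adjusted p = 5.71e-06). The oxygen sensor Egln3 had 2.59 and 3.25 at day 4 against 7.50 and 7.94 at day 2. The phosphofructokinase Pfkp changed by -5.18, the stress-responsive Ndrg1 by -3.28 and Pdk1, a pyruvate dehydrogenase kinase, by -3.27. Gapdh, a glycolytic enzyme often taken as constant, did not pass (0.19).

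Pgk1, the glycolytic phosphoglycerate kinase, had 12.33 and 12.47 at day 4 and 13.19 and 13.23 at day 2 (log2 change -0.81 ± 0.10, limma adjusted p = 0.000906). Its promoter is shown for ACGTG, the core of the site of the hypoxia-inducible factors. ACGTG lies in 19.6% of all windows, in 12 of the 19 falling genes of the list with a window and in 17 of the 24 measured ones. Some genes have several windows, and counted by window it lies in 13 of 28 for the falling genes. ACGTG is contained in the E-box CACGTG counted above, so the 2 motifs overlap. The window at chrX:106186850-106187149 on the plus strand (GRCm38.p6) has 2 matches, the second on the opposite strand and read as CACGT, and the first begins at -150.
Pgk1: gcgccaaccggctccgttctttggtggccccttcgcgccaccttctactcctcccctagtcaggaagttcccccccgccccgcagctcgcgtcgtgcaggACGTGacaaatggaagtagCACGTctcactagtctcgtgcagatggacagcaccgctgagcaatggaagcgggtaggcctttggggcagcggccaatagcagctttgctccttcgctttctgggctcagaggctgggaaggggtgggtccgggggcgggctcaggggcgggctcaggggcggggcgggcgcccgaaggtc

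Genes of cholesterol synthesis rose in 8 of 14 measured members and fell in 0 (median 0.60). The sterol-response motif TCACNCCAC lies in 1.24% of all promoter windows, in 0 of the 7 rising genes with a window and in 0 of the 12 measured ones. Nsdhl, a sterol dehydrogenase, had 9.88 and 10.02 at day 4 and 7.70 and 7.74 at day 2, and the isomerase Idi1 rose by 1.91, the demethylase Cyp51 by 1.19 and the oxidase Msmo1 by 1.08. Stress response genes fell in 12 of 15 measured members and rose in 1 (median -0.70), the single rise being lost without either DoxOn_day2 array, DoxOFF_day2 replicate 1 or either DoxOFF_day4 array. Hspb1, a small heat shock protein, had 5.67 and 5.71 at day 4 and 10.61 and 10.59 at day 2. Ddit3, the CHOP factor of the unfolded protein response, fell by 2.85, its target Trib3 by 1.86 and heme oxygenase Hmox1 by 1.89.

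Growth arrest and p53 target genes fell in 12 of 19 measured members and rose in 4 (median -0.62). Pmaip1, the p53 target Noxa, had 3.99 and 4.01 at day 4 and 7.65 and 7.62 at day 2, and Gadd45a, a DNA damage-inducible gene, fell by 2.57. Among the cyclins of the list, Ccnd2, a G1 cyclin of neural progenitors, had 10.85 and 10.71 at day 4 against 6.42 and 6.76 at day 2 (log2 change 4.20 ± 0.14, limma adjusted p = 2.65e-06). Of 24 measured replication and mitosis genes 6 rose and 1 fell (median 0.14), or 4 and 0 without DoxOFF_day2 replicate 2. The share that rose was near the 20.2% of all probes tested. Mki67, the marker of cycling cells, rose by 0.68 ± 0.14.

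Imprinted growth genes split, with 5 rises and 6 falls among 14 measured (median -0.55). Mest, expressed from the paternal copy, had 12.42 and 12.70 at day 4 and 8.92 and 9.01 at day 2, and Ndn, also paternal, rose by 3.86. Phlda2, expressed from the maternal copy and known to restrain growth, had 2.96 and 2.93 at day 4 and 9.23 and 9.31 at day 2. The maternally expressed Cdkn1c and Meg3 fell by 2.38 and 1.99. The 2 largest rises of this list were paternal and its 3 largest falls maternal.

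Of 12 measured housekeeping genes 2 rose and 4 fell (median -0.04), and of 14 ribosomal protein genes 0 rose and 3 fell (median -0.09), with 1 rise without either DoxOn_day2 array. The housekeeping share of rises was not above the 20.2% of all probes tested. The ribosomal share of falls was near their 17.9%. Hprt, a purine salvage enzyme, had 9.49 and 9.37 at day 4 and 11.63 and 11.61 at day 2 (log2 change -2.19 ± 0.09). The 2 probes of Actb differed: the brighter changed by 1.60 (limma adjusted p = 0.000273) and the other by 0.06 (limma adjusted p = 0.824). The Rpl10 probe changed by -5.73, the largest change of a ribosomal protein gene by far, where the others lay between -0.52 and 0.68.

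**Figure D4:**
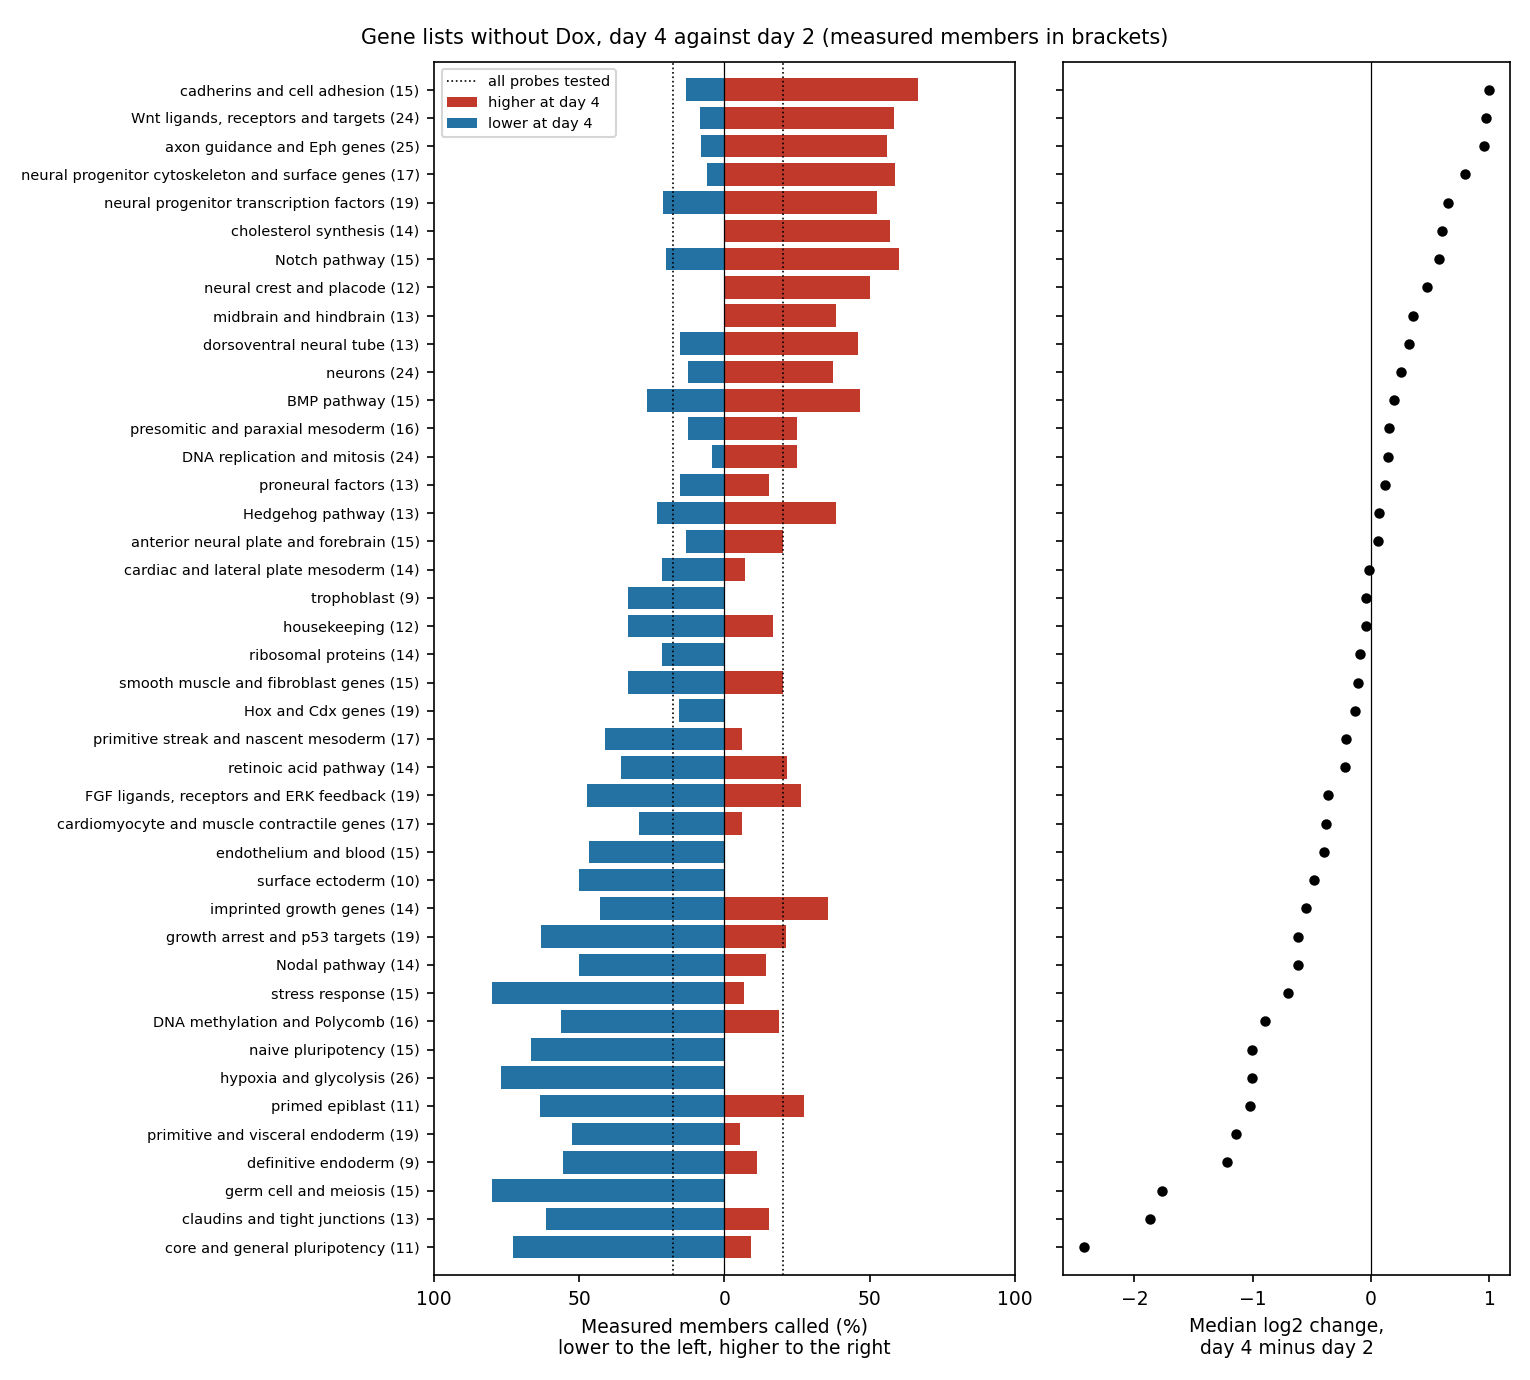
Share of the measured members of each of 42 gene lists that were called higher (red, to the right) or lower (blue, to the left) at day 4 without Dox, with the median log2 change of the members at the right; the number of measured members is in brackets and the dotted lines give the shares of all probes tested, 20.2% higher and 17.9% lower. Adhesion, Wnt, guidance and neural progenitor lists stand at the top, and pluripotency, tight junction, germ cell and endoderm lists at the bottom.

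Several of the largest changes belong to none of the lists. The largest rise of any named gene was that of Pdzph1, a PDZ and pleckstrin homology domain gene, with 9.88 and 10 at day 4 and 2.79 and 2.88 at day 2 (log2 change 7.10 ± 0.12, limma adjusted p = 3.69e-07). Lrtm1, a leucine-rich repeat membrane protein, was at the floor on both day-2 arrays and had 7.35 and 7.49 at day 4, at least 78.8-fold higher. Wfdc1, a secreted protease inhibitor-like protein, had 7.02 and 6.89 at day 4 and the floor on both day-2 arrays, at least 57.2-fold higher. Zfp521, a zinc finger factor known to promote neural differentiation of stem cells, had 7.19 and 7.22 at day 4 against 2.27 and 1.04 at day 2.

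Among the falls outside the lists, Pla2g10, a secreted phospholipase, was at the floor on both day-4 arrays and at 8.78 and 8.85 at day 2, at least 186-fold lower. Nupr1, a stress-inducible nuclear protein, had 1.56 and 1.74 at day 4 and 9.30 and 9.16 at day 2. Bcl11a, a zinc finger factor of brain and blood, had 1.47 and 1.04 against 8.17 and 8.37. The 2 probes of another phospholipase gene, Pla2g1b, both fell but by unequal amounts, -7.16 and -0.59. The gene 4930447C04Rik, also known as Six6os1 and a component of the synaptonemal complex, changed by -6.57.

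With Dox, fewer probes changed over the same days: 2087 rose (9.63%) and 2022 fell (9.33%). The 1103 probes that rose in both courses are 25.2% of the rises without Dox and 52.9% of those with Dox, and the 1282 that fell in both are 33% and 63.4% of the falls. Another 174 probes (3.97% of the rises without Dox) rose without Dox and fell with Dox, and 385 (9.92% of the falls) fell without Dox and rose with Dox. The test of the difference between the 2 day changes called 4796 probes (22.1%), with 2382 (11%) more positive and 2414 (11.1%) more negative without Dox.

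Pdzph1 had the largest fitted positive difference, 8.39 ± 0.18 on the log2 scale (limma adjusted p = 3.69e-06). With Dox it was at the floor on both day-4 arrays and at 2.48 and 2.18 at day 2, so that only the day-4 arrays without Dox were high and the size of the difference depends on the floor. Lrtm1 (6.38) and Wfdc1 (5.91) were at the floor on all 4 arrays with Dox. Crabp1, with 6.24 and 5.92 at day 4 and 6.78 and 6.70 at day 2 with Dox, differed by 5.34 ± 0.18. The dorsal factor Msx3 (5.93) and Pou3f4 (5.40) likewise stayed near the floor with Dox, at 1.53 or less.

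The Id3 difference of 5.98 ± 0.13 (limma adjusted p = 4.17e-06) had another shape. With Dox, Id3 was at 9.78 and 9.67 at day 4 and at 10.12 and 10.08 at day 2, above its day-2 level without Dox. Jam2, a junction adhesion molecule, had 6.19 and 6.47 at day 4 and 2.88 and 2.41 at day 2 without Dox (difference 5.74 ± 0.26). With Dox it had 4.29 and 4.07 at day 4 and 6.16 and 6.31 at day 2. For both genes the 2 courses differed at day 2 as well as in their change.

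Adm had the most negative fitted difference, -9.40 ± 0.40 (limma adjusted p = 2.32e-05), with 4.66 and 4.50 at day 4 and 2.57 and 1.85 at day 2 with Dox. Its day-2 level with Dox was far below that without Dox. Over the hypoxia and glycolysis list, 17 of 26 measured genes rose and 4 fell with Dox, and 21 were called as more negative without Dox and 0 as more positive. Some other lists moved the same way in both courses. With Dox, naive pluripotency genes fell in 10 of 15 measured members and rose in 0 (median -0.89). Germ cell and meiosis genes fell in 11 of 15 and rose in 0 (median -1.43). Cytoskeletal and surface genes of neural progenitors rose in 11 of 17 and fell in 0 (median 0.97), but their transcription factors rose in 5 of 19 (median 0.01). Of all probes tested, 9.63% rose and 9.33% fell with Dox.

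Sycp3 (-8.19), Tdgf1 (-7.56) and Epcam (-6.76) fell without Dox, while with Dox they stood at 8.13 or more on all 4 arrays. Bcl11a (-7.96) was at 8.03 and 7.81 at day 4 and 6.87 and 7.07 at day 2 with Dox. Utf1 (-7.08) and Dppa5a (-6.87) fell in both courses, and by 2.24 and 1.79 with Dox. Mesp1 (-7.79) is the case in which the course with Dox carries the difference: it had 9.40 and 9.27 at day 4 and 2.31 and 2.02 at day 2 with Dox.

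**Figure D5:**
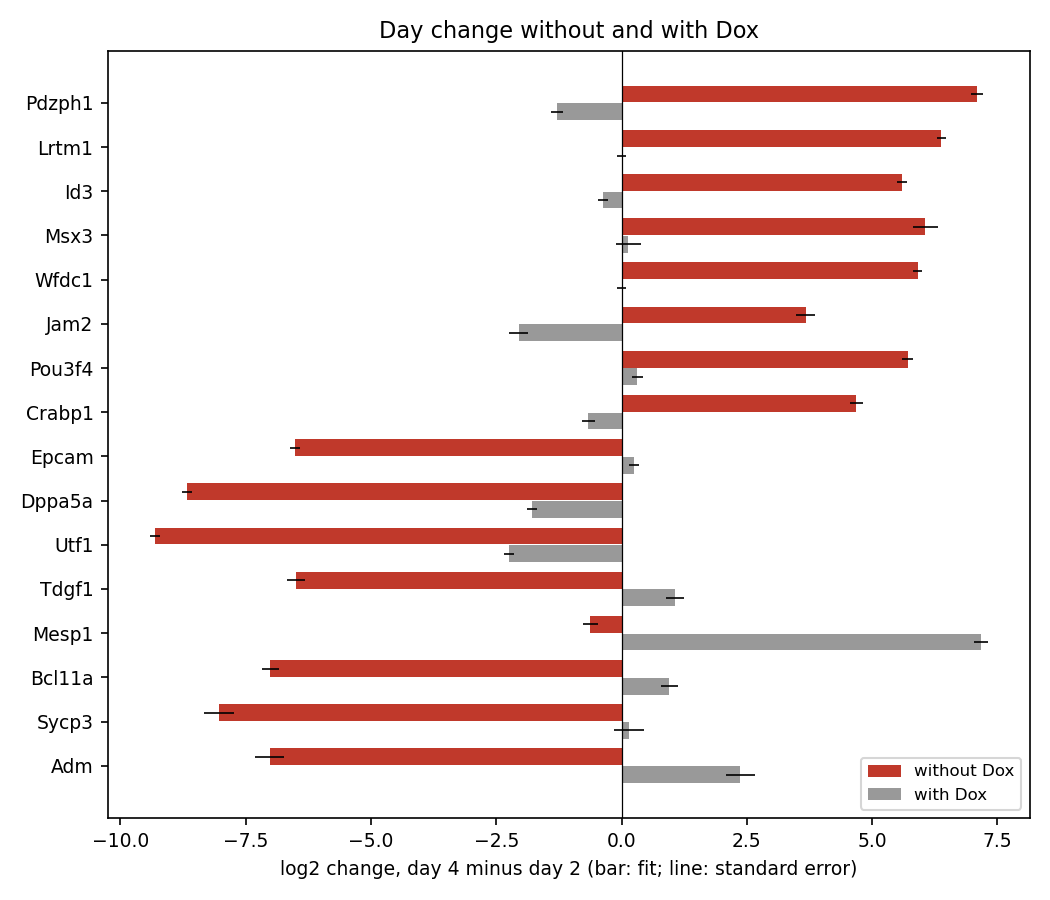
Fitted log2 change from day 2 to day 4 without Dox (red) and with Dox (grey) for the 16 genes with the largest differences between the courses, 8 in each direction; lines are standard errors of the fit, n = 2 arrays per group. Utf1 changes by -9.31 without Dox and -2.24 with Dox, and Mesp1 by -0.62 without Dox and 7.17 with Dox.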

How the data were processed

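Total RNA of embryoid bodies was measured on 8 single-colour arrays (Cy5, read at 635 nm), with 2 arrays in each of 4 groups set by Dox and day, as the sample titles give them. The authors deposited scanner output with a median intensity and a local background intensity per spot, scaled over 3 scanner gains per the file headers and not background-corrected. Their own processed intensity table, also deposited, served as an alternative after taking log2. Each array's blank-spot mean was subtracted. The scanner's background column was not used for this, since it tracked its own spot (log values correlated at 0.984 to 0.998); normexp on it is an alternative. The values were then quantile normalized between arrays, floored at 2.06 intensity units and log2 transformed. Probes above the blank mean plus 2 SD on at least 2 arrays were tested (21670, with 1803 left out).

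The log2 values of all 8 arrays entered 1 limma fit (limma 3.58.1, R 4.3.3) with a mean for each group. Moderated 2-sided p-values (eBayes, with 4 residual and 2.7 prior degrees of freedom) were adjusted by Benjamini-Hochberg across those probes and called under 0.05. Errors are standard errors of the fit. Where a day had no array above background for a gene, an at-least fold is given: the brighter day's mean over, per dim array, the lowest detectable level or the gene's own if that was higher. Probes were named from the platform annotation and current RefSeq symbols. Of the gene probes 16631 have 1 symbol and 6842 have none here, and the brightest probe stood for a gene with several (205 genes). Pou5f1, Sox2 and Sox1 have no named probe.

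Named genes were the 12 largest rises and the 12 largest falls, up to 5 called members of each of the 42 lists (689 genes), the 8 largest differences between the courses in each direction, and a fixed set that includes Tbx6, T, Nanog, Pax6, Tubb3, Cdh1, Cdh2, Mesp1, Crabp1 and Crabp2. Called genes outside that rule (Acvr2a, Acvr2b, Bmi1, Chga, Dbx2, Elavl3, Hes1, Id4, Ina, Lin28a, Nes, Nkd1, Slc1a3, Sycp1 and Taf7l) were chosen after their values were seen, as were the members given as not passing. The comparison, its lists and its named genes were chosen with earlier results of these data known. Lists are described by counts and medians and were not tested. Promoter windows are those of RefSeq (GRCm38.p6), searched on both strands. Same-numbered arrays of the 2 days without Dox did not deviate together (correlation -0.0489). For the other pairs of groups this correlation lay between -0.266 and 0.227. The fit was tested on simulated data. Figures were drawn with matplotlib 3.10.9.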

Additional observations from a re-analysis of the deposited data

Results flagged for a closer look

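The change from day 2 to day 4 differed between the courses without and with Dox for 4796 probes by the test of the difference itself (limma interaction contrast, adjusted p under 0.05), which is what brings the following values here. On the log2 scale, the change without Dox minus the change with Dox was 8.39 for Pdzph1, 6.38 for Lrtm1, 5.98 for Id3, 5.93 for Msx3, 5.91 for Wfdc1, 5.74 for Jam2, 5.40 for Pou3f4 and 5.34 for Crabp1. It was -9.40 for Adm, -8.19 for Sycp3, -7.96 for Bcl11a, -7.79 for Mesp1, -7.56 for Tdgf1, -7.08 for Utf1, -6.87 for Dppa5a and -6.76 for Epcam. Lrtm1 and Wfdc1 were at the floor on every array but the day-4 arrays without Dox, and Pdzph1, Msx3, Pou3f4, Adm, Sycp3 and Bcl11a were at it on at least 1 array, so the sizes and the order of these differences depend on the floor. Groups of 2 arrays are too small for a search for single outlying arrays.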

How the results depend on the processing

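Under the alternatives other than normexp (no background correction, the authors' table, 75th percentile or median scaling, no filter, all 8 arrays above background, floor halved or doubled, the 4 arrays alone, the replicate block, an intensity trend and each array left out), 7068 to 8720 probes were called without Dox apart from the left-out arrays, which gave 6486 to 8005. For the difference between the courses the left-out arrays gave 3464 to 3924. Each of these counts is within 1.5 times the values given above. Replicate numbers were not taken to pair the samples. With the replicate block 7756 probes were called, and 4155 for the difference. With 75th percentile scaling 47.5% of the calls were higher at day 4, against 53%. Of 3677 values of 197 results on named genes under these alternatives, 3660 kept their direction and their side of the threshold, 15 lost the call (Mesp1, Hey2, Acvr2a and Chga) and 2 gained it (Rax without DoxOFF_day2 replicate 1 and Mixl1 without DoxOFF_day4 replicate 1). Slc1a3, Hes1 and Dll3 were not among these 197 results. Without background correction sizes shrank: of 20 lists with a median of at least 0.5 in size, 16 had one more than 1.5 times smaller. Leaving out 1 array moved a count of calls by over 1.5 times in 21 of the 42 lists.

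With normexp on the local background, 0 probes were called without Dox and 0 for the difference (605 and 524 at an unadjusted p under 0.05). Of 197 values 145 then lost the call, and 34 changed sign with no call: Actb -1.0, Cdh1 0.57, Crabp2 -0.64, Crb3 0.02, Cxcr4 -0.01, Dll1 -0.01, Efna2 -0.14, Efna5 -0.03, En2 -0.02, Fgf4 0.01, Foxh1 0.01, Hes5 -0.06, Hey1 -0.03, Hprt 0.70, Hspb1 0.46, Idi1 -0.47, Klf5 0.01, Lefty1 0.01, Lin28a -0.03, Meg3 0.15, Myl7 0.04, Nefm -0.02, Neurod4 -0.01, Olig3 -0.02, Pgk1 1.86, Rxrg 0.02, Sycp3 0.10, Thy1 0.02, Trib3 0.02, Ttr 0.03, Zfp521 -0.01, Elavl3 0.08, Ina 0.16 and Chga 0.01. Dim probes close to the blank spots, and arrays numbering 2 per group, limit what can be measured.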
